A study of Mus musculus with 3264 samples.

Results

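The actin cytoskeleton genes described here are 44 listed mouse genes: the actins, the proteins that hold actin monomers, the factors that branch, lengthen, cut and cross-link filaments, the myosin and tropomyosin chains, the regulators that steer them and the proteins that tie filaments to membrane and adhesion sites. They were chosen by name and role, with earlier results of these data known, and no threshold on a value was used. All 44 are rows of both deposited tables, of 24781 genes listed for the cell lines and 25051 listed for blood cells. A further 97 genes of the same pathway are given as counts.

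RNA was counted in separate wells meant to hold 1 cell each. The cell lines were a murine leukemia line, a murine T cell line and a murine hematopoietic progenitor cell line (HPC), and blood was represented by C57BL/6J mononuclear cells (PBMC). The sources used here give no strain or genotype for the lines, no age for the animals and no number of cultures or animals, and no group is labelled with a drug or a genetic change. Wells were filled by ALPS, which images live cells and picks them, or by fluorescence-activated cell sorting (FACS). ALPS was used to pick from the mixture at random (4 plates), to pick by type (4 target plates, each labelled with 36 leukemia, 36 T and 24 HPC wells), to image the mixture over time before picking (16 plates) and to do the same with PBMC (8 plates), and FACS filled 2 plates.

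Of 3264 labelled wells, the tables hold 1836 cell line wells, all of which passed, and PBMC wells of which 7 were left out for fewer than 300 detected genes. A line had 17 to 34 wells on a target plate, 17 to 44 on a random plate, 24 to 32 on a FACS plate and 6 to 37 on a time-lapse plate. Total counts per well ran from 10004.8 to 140363 in the cell lines and from 1013.98 to 7991.91 in PBMC. The labels name no culture or animal, so every group is 1 sample, the plates are technical batches, and no p-value is given. The target wells are grouped by label, since 99.1% of them resembled their own line in genes other than the 44. The 3 that did not are labelled HPC. Leaving them and mixed wells out gave 11 in place of 9 members lower in HPC than in leukemia and 9 in place of 10 higher in HPC than in T. The FACS labels did not follow the cells, since 33.5% of the wells resembled the line on their label, so FACS, random and time-lapse wells were assigned to a line by expression. The labelled types were checked against their markers. Target T wells held 11 of 14 T cell markers at 10 counts per 1000000 (CPM) or more, and leukemia wells held 6 of them and none of 9 progenitor markers. HPC wells held 7 progenitor markers and also 6 of 11 monocyte and 5 of 14 T cell markers (163.6 CPM summed). Random and FACS HPC wells held 1 T cell marker at 10 CPM or more (94.5 and 33.7 CPM summed), and time-lapse HPC wells held 3 (195.3 CPM summed). Time-lapse T wells held 10 of the 14 T markers, with a summed level of 1727 CPM against 2658 CPM in random T wells.

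Actin is the protein of the thin filaments that shape, stiffen and move a cell. Monomers are kept in reserve by thymosins and profilin, new filaments branch from the Arp2/3 complex under the control of Rac, Cdc42 and WASP proteins, and cofilin with its helpers takes old filaments apart. In blood cells this machinery drives migration, adhesion and the contact between a lymphocyte and its target, and several of its parts, such as Coro1a, Dock2, Was and Lcp1, are made mainly in blood cells.

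Levels are CPM, a gene's share of the counts summed over the wells of 1 line on 1 plate, scaled to a common total. Since the primer binds the poly-A tail and molecules were counted, a level counts molecules and was not divided by gene length. Differences are taken between groups for the same gene. Where a gene is said to give the most or fewest molecules, its counts alone are ranked. Because counts in a well are shares of that well's total, fewer molecules of a gene and more molecules of other genes cannot be told apart. Differences are of log2(CPM + 1), which understates the change of low genes. A gene is called higher or lower when it differed at least 2-fold in the mean and in the same direction on every plate (on every pair of plates where groups shared none, and for time-lapse on at least 85% of the 16 plates beyond every random plate), with 10 CPM or more in 1 of the groups. For PBMC the fold and the levels come from counts pooled over all plates. The direction there was read only on plates with at least 5 wells of both types. The share of all genes that met this rule stands beside each count.

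On the target plates T wells had 1 gene higher and 13 lower than leukemia wells, of 43 tested, where 14.8% of all genes were higher and 12.2% lower. HPC wells had 2 higher and 9 lower than leukemia wells, of 43 tested, beside 13.1% and 12.7% of all genes. HPC wells had 10 higher and 2 lower than T wells, of 44 tested, beside 13.2% and 15.3%. The median log2 difference over the tested members was -0.45 for T against leukemia (all genes 0.01), -0.35 for HPC against leukemia (all genes -0.12) and 0.12 for HPC against T (all genes -0.12). On the target plates 14 members lay above both other lines in leukemia without overlap (11.7% of all genes), 4 in T (13.8%) and 3 in HPC (9.61%), and 12 lay below both others in T (8.34%), 4 in HPC (8.44%) and 2 in leukemia (7.53%).

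**Figure D1:**
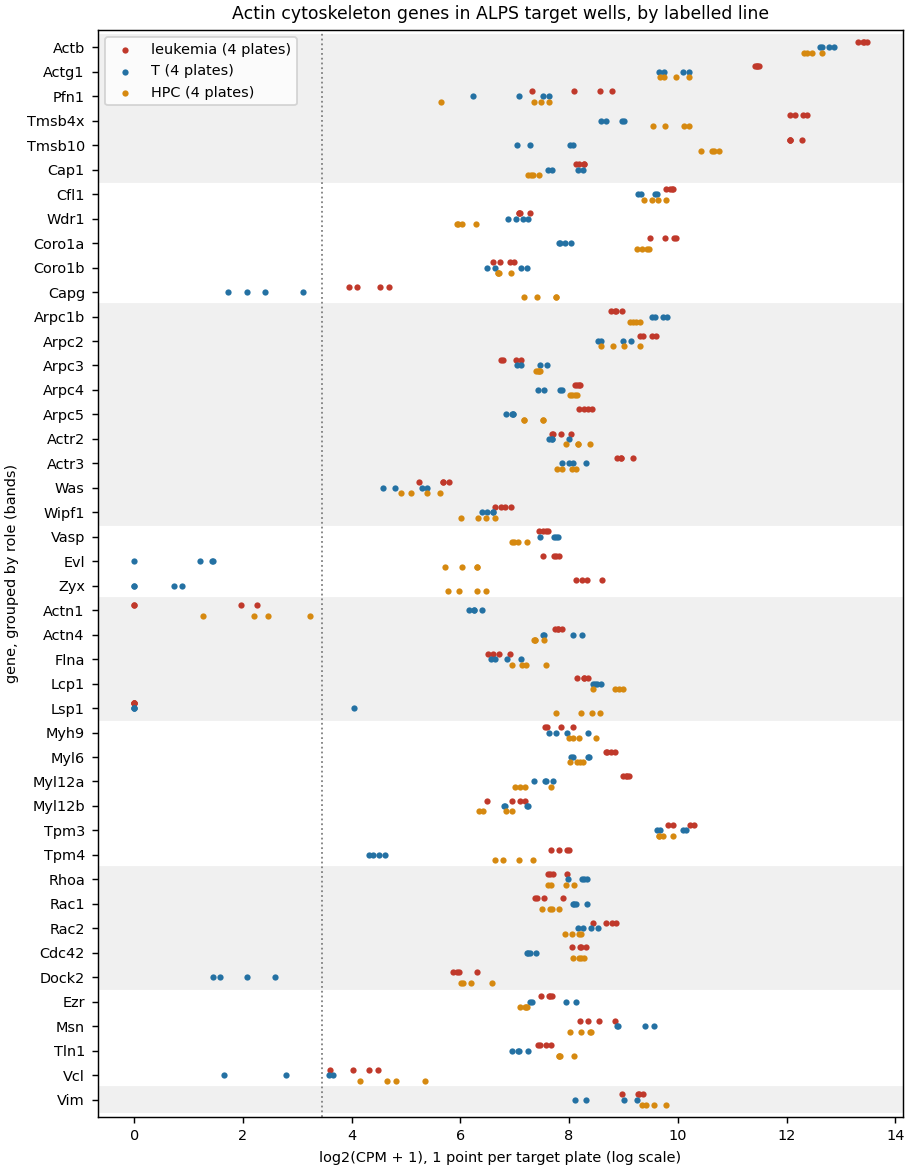
Level of each of the 44 genes as log2(CPM + 1) on the horizontal axis, with 1 point for each of 4 target plates and each labelled line, and the genes grouped by role in shaded bands; the dotted line marks 10 CPM. Zyx and Evl lie near 0 in T wells, Lsp1 lies at 0 in leukemia wells, Actn1 lies above 10 CPM only in T wells, and the 2 thymosins spread widely between the lines.

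The monomer pool differed most in the thymosins, small proteins that bind actin monomers and keep them out of filaments. Tmsb4x (chrX:167207093-167209315, GRCm38, minus strand) was at 5342, 4585, 4276 and 5050 CPM on target plates 1 to 4 in leukemia wells. In T wells it was at 381.7, 498.4, 407.3 and 515.7 CPM, and in HPC wells at 1106.1, 866.04, 741.3 and 1186.7 CPM. The lines did not overlap on any plate. Tmsb4x was lower in T than in leukemia wells by a log2 difference of -3.42 (10.6-fold in pooled counts, exact 95% interval for counting error 10.1 to 11.05), lower in HPC than in leukemia by -2.32 and higher in HPC than in T by 1.10. The last of these fell short of 2-fold without the wells that were mixed or against their label (0.99) and without target plate 1 (0.95).

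Tmsb10, the second thymosin (chr6:72957347-72958748, minus strand), kept the same order of lines. Its levels on plates 1 to 4 were 5007, 4304, 4250 and 4277 CPM in leukemia wells, 269.4, 258.1, 131.6 and 155.4 CPM in T wells, and 1630, 1577, 1377.9 and 1737 CPM in HPC wells. The 3 lines were again apart on every plate, in the order leukemia, HPC, T. The log2 difference was -4.51 for T against leukemia (21.95-fold in pooled counts, 20.6 to 23.4), -1.50 for HPC against leukemia and 3.01 for HPC against T.

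Actb, beta-actin (chr5:142903115-142906754, minus strand), gave the most molecules of the 44 in every line: 10847 ± 478.1 CPM in leukemia, 6793 ± 535.9 in T and 5629 ± 580 in HPC wells (SD over 4 plates). Its leukemia plates lay above all others, but no line differed 2-fold. The cytoplasmic gamma-actin gene Actg1 (chr11:120345690-120348542, minus strand) was at 2804, 2892, 2805 and 2721 CPM in leukemia wells, against 801.7, 857.5, 1181.9 and 1094.1 CPM in T wells and 993.1, 852.7, 818.6 and 1183.7 CPM in HPC wells. It was lower than in leukemia in both (log2 -1.53 and -1.56), and T and HPC plates overlapped. Not all deposited values are whole molecules: 77.2% of the positive values of Actb, 16.2% of those of Actg1, 17.8% of Tmsb10 and 15.3% of Tmsb4x were not whole numbers, against 5.31% over the table. How the authors divided molecules between genes is not given in the sources used here, so these levels are uncertain. Cap1, a cyclase-associated protein that recycles monomers, was called in no comparison (296.8 CPM in leukemia, 248.1 in T and 160.8 in HPC wells).

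In the RefSeq promoter table (GRCm38.p6), 39 of the 44 genes had an entry, with 49 start sites. Actb, Coro1b, Lsp1, Rac1 and Rac2 had no entry, so their promoters were not searched. Motifs were searched in the 250 bases before each start. These windows, without the bases that lie inside the annotated gene, are shown for 3 genes called between the lines: Actg1, Vcl and Actn1. The first 2 hold a CArG box, the site known to bind serum response factor, a regulator of actin genes. The windows are chr11:120348543-120348745 (minus strand), chr14:20929148-20929397 (plus strand) and chr12:80260372-80260613 (minus strand). Capitals mark the motifs searched on both strands: the CArG box, CCAAT of NF-Y, GGGCGG of Sp1, CCGGAAG of ETS factors, the E-box CACGTG and the TATA box TATAAA, of which the GGGCGG matches of a window can overlap each other.
Actg1: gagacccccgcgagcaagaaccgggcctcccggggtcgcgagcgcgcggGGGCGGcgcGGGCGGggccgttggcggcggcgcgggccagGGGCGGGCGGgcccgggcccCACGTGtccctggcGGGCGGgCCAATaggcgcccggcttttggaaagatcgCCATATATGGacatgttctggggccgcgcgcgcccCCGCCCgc
Vcl: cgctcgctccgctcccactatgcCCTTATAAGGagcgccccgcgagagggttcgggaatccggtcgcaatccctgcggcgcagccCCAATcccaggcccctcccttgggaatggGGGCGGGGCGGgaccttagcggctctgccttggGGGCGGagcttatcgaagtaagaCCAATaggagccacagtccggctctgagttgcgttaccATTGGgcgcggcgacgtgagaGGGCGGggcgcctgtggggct
Actn1: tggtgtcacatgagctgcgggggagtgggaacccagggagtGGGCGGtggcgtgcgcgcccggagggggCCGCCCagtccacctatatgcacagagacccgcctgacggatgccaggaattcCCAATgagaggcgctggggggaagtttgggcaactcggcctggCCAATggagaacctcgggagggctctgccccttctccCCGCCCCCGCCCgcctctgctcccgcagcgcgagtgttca

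The CArG box reads CCATATATGG in Actg1, beginning 90 bases before the start, and CCTTATAAGG in Vcl, near the far end of the window. It was found in 4 of the 49 windows (8.16%, Actg1, Arpc4, Myl6 and Vcl) and in 1.47% of 32851 windows of 250 bases over all genes. GGGCGG was in 63.3% of the members' windows and 32.7% of all, CCGGAAG in 24.5% and 6.91%, CACGTG in 8.16% and 6.02%, CCAAT in 22.4% and 33.8%, and TATAAA in 6.12% and 12.4%. The 2 genes whose CArG box is shown differed between the lines in unlike ways: Actg1 was highest in leukemia and Vcl in HPC wells. A match is a run of letters and no measured site of binding. The windows over all genes were not limited to genes counted in these cells, and the part of this in the shares was not tested.

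Among the factors that turn filaments over, Cfl1, the cofilin that severs old filaments, was at 926.4 CPM in leukemia, 701.2 in T and 768.8 in HPC wells and was not called. Coro1a, coronin of blood cells, was at 1003.2, 979.3, 721.04 and 865.1 CPM in leukemia wells and at 707.8, 690, 603.9 and 645.4 CPM in HPC wells. In T wells it was at 227.3, 223.6, 240 and 260.98 CPM, under every plate of both other lines. It was lower in T than in leukemia (log2 -1.89) and higher in HPC than in T (1.47), while HPC against leukemia (-0.42) was not called. Its relative Coro1b stayed between 107.3 and 118.2 CPM in the line means.

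Capg, a gelsolin relative that caps filament ends and is abundant in macrophages, stood out in HPC wells, with 169.3, 215.4, 216.5 and 142.7 CPM. It was at 22, 14.5, 16.2 and 24.6 CPM in leukemia and at 4.3, 7.57, 3.24 and 2.32 CPM in T wells. HPC was higher than leukemia by 3.21 (9.52-fold, 7.52 to 12.2) and than T by 5.20, and T was lower than leukemia by -1.99. Wdr1, a cofilin partner, was lower in HPC (61, 64.8, 60 and 77 CPM) than in leukemia (mean 140 CPM, log2 -1.08) and T (134.1 CPM, -1.02). Both Wdr1 calls lie at the threshold: the first fell to -0.96 under median-of-ratios scaling, and the second was lost under 6 of its alternatives, with values from -0.99 to -0.92.

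The Arp2/3 complex starts a branch on the side of a filament. Of its 7 listed subunits and the 2 activators Was and Wipf1, 1 was called lower in T against leukemia (Arpc5, -1.37), beside 12.2% of all genes. In HPC against leukemia 1 was called lower (Actr3, -1.04), beside 12.7% of all genes, and in HPC against T none was. Arpc5 was at 324.1, 308.2, 291.2 and 340 CPM in leukemia and at 124.6, 123.2, 113.2 and 124.4 CPM in T wells, with HPC between at 182.9, 142.2, 143.7 and 181.9 CPM. Actr3 was at 494.8, 493.01, 473.3 and 579.3 CPM in leukemia, 232.4, 256.2, 270 and 317.8 in T, and 279.4, 218.9, 232.8 and 263.6 in HPC wells, and its call was lost under median-of-ratios scaling (-0.92) and without target plate 2 (-0.99). Arpc1b, the most counted of the group over the 3 line means, ran against that order: 885.4, 844.7, 731.4 and 769.004 CPM in T wells, above all plates of HPC (555.4 to 634.4 CPM) and leukemia (434.1 to 500.8 CPM), though under 2-fold. Was, the WASP protein that activates the complex in blood cells, gave the fewest molecules of the group, at 47.99, 32.2 and 37.8 CPM in leukemia, T and HPC wells. Arpc4 shares exons on its strand with Ttll3, and 47.8% of its positive values were not whole.

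Among the proteins that lengthen filaments at their growing end, 2 of 3 were near absent from the T line. Zyx, zyxin, which recruits Ena/VASP proteins to adhesion sites and stress fibres (chr6:42349630-42360213, plus strand), was at 278.9, 301.9, 320 and 390.7 CPM in leukemia wells and at 77.9, 53.5, 61.8 and 87.6 CPM in HPC wells. In T wells it was at 0, 0.841, 0 and 0.664 CPM. The ratio of leukemia to T in pooled counts was 770 (212.7 to 6362), and the log2 differences were -7.92 for T against leukemia, -2.20 for HPC against leukemia and 5.72 for HPC against T. Zyx was counted in all leukemia wells, in 58 of 73 HPC wells (79.5%) and in 2 of 120 T wells (1.67%), at a median total of 37148 counts in T wells against 31868 in leukemia and 34189 in HPC wells.

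On the other plates the line held few counts of Zyx or none. It had none in 64 FACS wells assigned to T, which by the floor of 3 counts allows a share of wells with a count of up to 4.69%, and none in the random T wells, which allows up to 2.52%. Of the time-lapse T wells 5 held a count (1.61%). Evl, an Ena/VASP protein (chr12:108554720-108688516, plus strand), followed the same order, at 222.7, 181.9, 214.4 and 210 CPM in leukemia, 1.72, 1.68, 0 and 1.33 CPM in T, and 77.9, 64.8, 78.2 and 51.3 CPM in HPC wells. Its pooled ratio of leukemia to T was 165.9 (75.9 to 453.4). The third member of the group, Vasp, was present in all 3 lines, at 185.04, 205.7 and 132.6 CPM, and was not called. Zyx overlaps an exon of Epha1 and Evl one of Degs2 on the other strand, and the sources used here do not say whether strand was used in counting.

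Among the 5 cross-linkers only Lsp1 and Actn1 were called between lines, to be read beside the 12.2% to 15.3% of all genes given above. Lsp1, a filament-binding protein of leukocytes (chr7:142460809-142494867, plus strand), was at 379.3, 297.01, 343.8 and 215.9 CPM in HPC wells and at 0 on all 4 plates in leukemia wells, at least 433.45-fold higher in HPC against a floor of 3 counts over the leukemia group. No count was found in target, random or FACS leukemia wells (by the same floor, shares of wells of up to 2.38%, 3% and 4.76%), and 3 time-lapse leukemia wells held one (0.70%). In T wells its 18 counts all came from 2 wells of target plate 2 (15.6 CPM there and 0 on the other plates). HPC was higher than T by 7.23, or 81.2-fold in pooled counts (51.02 to 137.7).

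Actn1, alpha-actinin of non-muscle cells (chr12:80167547-80260371, minus strand), was the 1 member called higher in T than in leukemia. It was at 75.6, 70.6, 75.5 and 83.6 CPM in T wells, at 0, 2.90, 0 and 3.79 CPM in leukemia wells and at 8.47, 1.41, 3.64 and 4.53 CPM in HPC wells. Every T plate lay above every other plate. T exceeded leukemia by 5.21 (46.8-fold, 22.5 to 117.2), and HPC was lower than T by -3.97. It was counted in 89.2% of T wells, 3.97% of leukemia wells and 12.3% of HPC wells. Its paralog Actn4 was at 222.5, 234.2 and 168.9 CPM in leukemia, T and HPC wells and was not called, nor were Flna, filamin A (102.2, 111.1 and 150 CPM), or Lcp1, the plastin of blood cells (304.99, 362.6 and 450 CPM).

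In the contractile group, Tpm3, a tropomyosin that coats filaments, gave the most molecules, at 1077.3, 953.4 and 851.95 CPM in leukemia, T and HPC wells, with no call. Tpm4 was at 225.2, 203.2, 254.8 and 249.3 CPM in leukemia, 98.2, 160, 109.1 and 133.4 CPM in HPC, and 18.9, 23.5, 21.6 and 19.9 CPM in T wells. T was lower than leukemia by -3.41 (11.1-fold, 9.07 to 13.8) and HPC higher than T by 2.50. Myl12a, a regulatory light chain of non-muscle myosin, was at 546.2, 533.7, 525.4 and 507.7 CPM in leukemia, against 186.9, 190, 163.4 and 206.7 in T and 145.6, 136.2, 128.2 and 202.8 in HPC wells (log2 -1.50 and -1.80). The neighbouring gene Myl12b shares exons with it on the same strand (chr17:70993656-71002878 and chr17:70974119-71002208), and stayed at 123.04, 130.6 and 99.96 CPM. The heavy chain Myh9 and the light chain Myl6 were called in no line comparison.

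Dock2, the exchange factor that loads Rac in lymphocytes (chr11:34226815-34783892, minus strand), was at 78.6, 61.9, 57.1 and 60.7 CPM in leukemia and 95.2, 63.3, 65.5 and 72.5 CPM in HPC wells. In T wells it was at 1.72, 5.04, 3.24 and 1.99 CPM. T was lower than leukemia by -4.10 (22.3-fold, 13.1 to 41.4) and HPC higher than T by 4.29.

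Of the linkers, Msn, moesin, which ties filaments to the membrane, gave the most molecules, and its T plates (472.6, 479.2, 753.8 and 673.8 CPM) lay above all leukemia (291.999, 326.6, 461.1 and 373.4) and HPC plates (259.1, 297.01, 332.9 and 338.9) at under 2-fold. Tln1, talin, which links integrins to actin, was at 184.6, 135.1 and 236.98 CPM, the lines apart on every plate but not called. Vcl, vinculin, talin's partner, was low: 15.2, 21.3, 11.1 and 18.96 CPM in leukemia, 11.6, 10.9, 2.16 and 5.97 in T, and 27.1, 16.9, 40.02 and 24.2 in HPC wells. It was higher in HPC than in T (1.82), and the call of T below leukemia (-1.18) was lost with 5 CPM added (-0.83), with counts pooled over plates (just under 2-fold) and without target plate 3 (-0.93). Vim, vimentin, an intermediate filament protein listed beside the actin genes, was at 600.9, 427.9 and 736.9 CPM in leukemia, T and HPC wells and was not called.

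By the rule for a gene missing from a line (under 10 CPM there and 50 CPM or more in another), Zyx, Evl, Dock2 and Capg were missing from T, Actn1 from leukemia and HPC, and Lsp1 from leukemia and T. The share of all genes that met this rule was not counted, so the list does not show whether such losses are frequent among the members. The called differences between lines were then measured on the other plates of the same lines, which did not serve to call them. Of the 14 called in T against leukemia, 12 were called the same way on random plates and 12 on FACS plates, all but Pfn1 and Vcl in both, and 9 on time-lapse plates. The shares of all genes called on those plates, whatever their call on target plates, were 14.9% higher and 12.8% lower on random, 16.7% and 12.1% on FACS, and 14.6% and 11.1% on time-lapse plates. How often any gene called on target plates was called again was not counted, so these shares are no measure for the repeated calls. Of the 11 in HPC against leukemia, 10, 10 and 8 were called the same way in that order (all genes 16% and 11.8%, 15.6% and 13.2%, 13.6% and 12.5%), and of the 12 in HPC against T, 11, 11 and 10 (16.8% and 14.7%, 14.9% and 17.2%, 13.5% and 16.5%). All kept their sign on random and FACS plates. On time-lapse plates Vcl turned. T wells went from below leukemia wells to above them, at 33.3 against 15.05 CPM (log2 1.11 for T against leukemia). HPC wells went from above T wells to slightly below them (log2 -0.15 for HPC against T).

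The other 97 pathway genes moved in both directions. T against leukemia had 14 higher and 15 lower of 81 tested, with Lpxn, Itgal and Add3 the largest higher (6.06, 5.94 and 5.61) and Dock10, Pfn2 and Diaph2 the largest lower (-5.23, -5.02 and -4.25). HPC against leukemia had 14 higher and 9 lower of 81, led by Itga4, an integrin chain (7.90), and by the second profilin gene Pfn2 (-4.95). HPC against T had 16 higher and 11 lower of 83, with Itga4, Dock10 and Dock8 at 7.68, 5.97 and 5.92, and Mylk, a myosin light chain kinase, at -5.00. As with the 44, these shares are to be read beside the 12.2% to 15.3% of all genes given above.

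Pfn1, profilin, which feeds monomers to growing filaments (chr11:70651850-70654644, minus strand), was called in 5 of 9 comparisons between plate sets. On target plates 1 to 4 it was at 443.3, 376.9, 158.3 and 271.1 CPM in leukemia wells, 182.2, 133.7, 73.9 and 196.4 in T wells, and 162.6, 178.1, 49.1 and 197.8 in HPC wells. Plate 3 was the lowest in every line. Leukemia was above T (log2 -1.08) and HPC (-1.16) on every plate, and these calls were lost without target plate 2 for T (-0.94) and without target plate 3 for HPC (-0.99).

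The mean Pfn1 level over FACS, random, target and time-lapse plates was 571.9, 457.9, 312.4 and 130 CPM in leukemia, 354.9, 284.7, 146.5 and 88.5 CPM in T, and 218.8, 180, 146.9 and 50.4 CPM in HPC wells. The order of the means was the same in all 3 lines, but not every step was larger than the spread of plates. Target and time-lapse plates overlapped in all 3 lines, random and target plates in leukemia and HPC, and FACS and random plates in T and HPC wells. In every line all 16 time-lapse plates lay below all 4 random plates. The precursor of ribosomal RNA, Rn45s, made up 5.85%, 8.96%, 11.8% and 13.9% of the counts on the median FACS, random, target and time-lapse plate in leukemia, 4.995%, 8.59%, 10.8% and 11.5% in T, and 5.97%, 9.34%, 11.9% and 13.6% in HPC wells, and its part in the Pfn1 levels was not tested beyond leaving its counts out of the total.

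**Figure D2:**
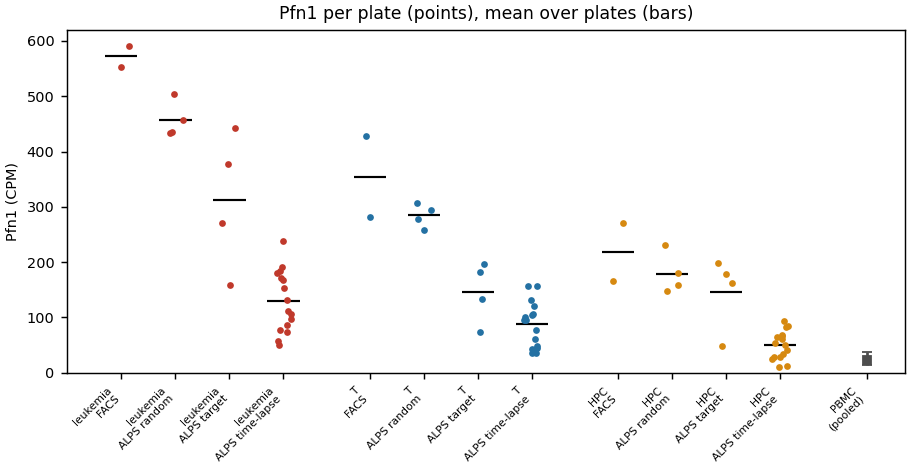
Pfn1 level in CPM on the vertical axis, with 1 point for each plate, grouped by line and plate set, the mean over plates as a bar, and the pooled PBMC value with its exact Poisson 95% interval. In each line the time-lapse points lie below the random points, and the FACS mean is the highest.

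Picking by type was compared with FACS within each line. Of the members, none was called in leukemia (42 tested; all genes 0.809% higher and 0.835% lower) or HPC wells (43 tested; 2.21% and 3.49%), and 1 was called in T wells, Pfn1, lower on target plates by -1.33 (38 tested; 1.27% and 0.782%). Over the 2 FACS plates Actb was at 10679 CPM in leukemia wells against 10847 CPM on target plates, and Tmsb10 at 4721 against 4459 CPM. Pfn1 in leukemia, at 571.9 against 312.4 CPM, did not overlap between the sets and missed the 2-fold threshold (-0.97). Random and target plates, both picked by ALPS without time-lapse imaging, differed in 1 call, Pfn1 in T wells, higher on random plates by 1.05 (all genes 0.155% higher and 0.0906% lower). No member was called in leukemia (0.132% and 0.0396%) or HPC wells (1.98% and 0.0867%). The Pfn1 call between random and target plates was lost without target plate 3 (0.75), the plate where it was lowest.

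Time-lapse and random plates were compared next, which sets cells imaged for some time against cells picked from the mixture without it. Plates of the 2 kinds are different plates, so imaging and plate cannot be told apart. In leukemia wells 1 member was called, Pfn1, lower by -1.94, of 42 tested (all genes 0.919% higher and 1.04% lower). All 42 differences lay below 0, as did 61.5% of all genes, with a median of -0.40 against -0.10 over all genes. With Rn45s left out of the total 40 lay below 0 (53.7% of all genes), and under median-of-ratios scaling 38 (51.8%). Summed over the 44 genes, leukemia wells held 36201 to 40068 CPM on random plates and 16348 to 35819 CPM on time-lapse plates, so these did not overlap. Target leukemia plates, at 33729 to 36561 CPM, and the lower FACS plate, at 33467 CPM, reached into the time-lapse range.

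**Figure D3:**
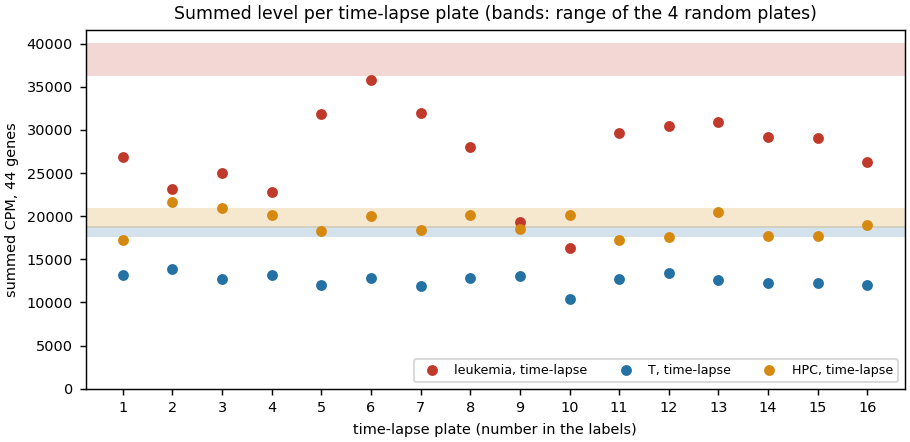
Summed CPM of the 44 genes on each of 16 time-lapse plates by line, with shaded bands for the range of the 4 random plates of the same line. Every leukemia and T point lies below its band, with leukemia lowest on plates 10 and 9, and HPC points lie in and around theirs.

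The leukemia plates differed widely among themselves. Plate 10 held 16348 CPM, plate 9 held 19306 CPM and plate 6 held 35819 CPM in the sum of the 44 genes. Actb ranged from 4705 to 10372 CPM over the 16 plates, against 11175 to 12141 CPM on random plates, and was below every random plate on all 16. Actg1 ranged from 745.7 to 2758 CPM against 3004 to 3349 CPM, also below on all 16. Tmsb4x ranged from 1214.5 to 5298 CPM against 4799 to 6403 CPM, below on 14 of 16.

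In T wells 1 member was called higher and 8 lower of 39 tested, beside 9.55% and 10.4% of all genes. The largest was Vim, at 19.4 to 47.7 CPM (median 35.4) on time-lapse plates against 446.6 to 490.3 CPM on random plates (log2 -3.75). It was counted in 72.7% of time-lapse T wells and in every random T well, at plate median totals of 38410 to 76952 and 43772 to 46157 counts. Tmsb10 was at 4.19 to 30.8 CPM (median 12.7) on time-lapse plates and at 153.4 to 188.2 CPM on random plates (-3.63), and was counted in 31.5% of time-lapse and all random T wells. The other thymosin, Tmsb4x, was at 465.2 against 546.4 CPM in the means and was not called. The plates of the 2 kinds did not overlap for Vim or Tmsb10.

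Coro1a in T wells was at 47.3 to 110 CPM on time-lapse and 294.6 to 321.9 CPM on random plates (-1.97). Tln1 was at 31.9 to 60.5 against 126.6 to 148.1 CPM (-1.54), Pfn1 at 35.6 to 157.8 against 258.5 to 307.2 CPM (-1.83), and Arpc1b at 271.7 to 393.5 against 675.5 to 774.02 CPM (-1.08). These groups did not overlap. Tpm3 was called at the threshold (-1.01) and was lost in 5 alternatives, with values from -0.997 to -0.95. Tpm4 (-1.22) was lost with 5 CPM added (-0.96) and with Rn45s left out of the total (-1.18), there through the rule on single plates. Vcl, the partner of talin, was the member called higher: 18.6 to 58.3 CPM on time-lapse plates against 6.04 to 13.1 CPM on random plates (1.74, 3.63-fold in pooled counts, 2.72 to 4.94). Ezr, ezrin, a linker like moesin, was at 387.2 against 230 CPM in the means, and was not called. In the same T wells the summed level of the T cell markers differed as given at the outset, and its part in these values was not tested.

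In HPC wells 1 member was called higher and 1 lower of 43 tested, beside 4.31% and 7.92% of all genes. Pfn1 was at 10.03 to 94.004 CPM on time-lapse plates and 147.2 to 230.9 CPM on random plates (-2.03). Vim was at 602.9 to 1243.8 CPM on time-lapse plates against 306.8 to 525.6 CPM on random plates (1.06), without overlap. The call of Vim rests on random plate 3: without it the difference was 0.92. The summed monocyte markers in HPC wells were at 430.4 CPM on time-lapse and 858.5 CPM on random plates, and their part in the difference was not tested. Target and FACS HPC wells held 736.9 and 682.7 CPM of Vim, nearer to the time-lapse level than to the random level of 420.9 CPM. Msn in HPC was at 449.1 against 240.8 CPM and Flna at 224.1 against 134.2 CPM in the means, neither called. The median over members in HPC was 0.02 (all genes -0.07), and the summed level, 17246 to 21665 CPM, overlapped the 18674 to 21001 CPM of random plates.

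**Figure D4:**
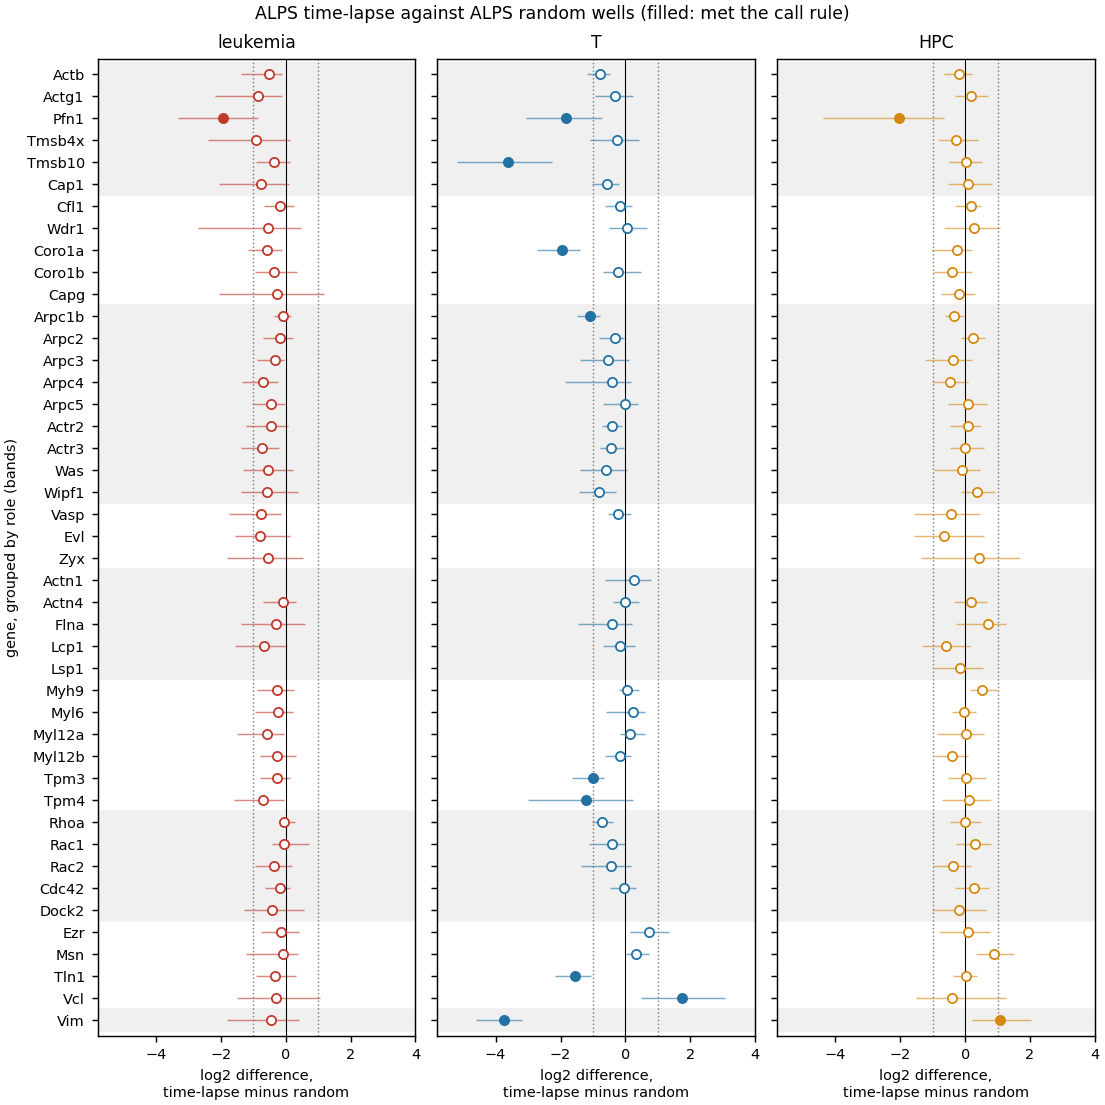
Log2 difference of time-lapse minus random plates for each tested member in leukemia, T and HPC wells, with bars for the range over all pairs of plates and filled circles for genes that met the call rule; dotted lines mark 2-fold. Pfn1 is filled on the lower side in all 3 lines, and Vim lies on opposite sides in T and HPC wells.

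Among the 97 other pathway genes, time-lapse T wells had 4 higher and 18 lower of 79 tested (all genes 9.55% and 10.4%). Ssh2, a phosphatase that activates cofilin, was highest at 1.72, and the integrin chain Itgb2, Mylk and Ahnak were lowest at -4.98, -4.90 and -3.90. Leukemia wells had 0 higher and 2 lower of 77 (Tpm1 -1.13 and Myo1f -1.09), beside 0.919% and 1.04% of all genes. HPC wells had 4 higher and 4 lower of 82, beside 4.31% and 7.92%. Ahnak was called in opposite directions, higher in HPC (1.84) and lower in T wells, a difference between lines that was not tested.

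Wells of 1 line also differed from each other. The spread was taken over the wells of all plates of a set together, so differences between plates are part of it. In leukemia target wells the coefficient of variation beyond counting error was largest for Tmsb4x (52.5%), Myh9 (52.2%) and Vim (45.6%). It was smallest for Arpc4 (8.6%). The 2 leukemia target wells low in X-linked counts were kept in these values. In T wells it ran from 7.3% (Cdc42) to 50.9% (Tmsb10), and in HPC wells from 9.7% (Cdc42) to 107.6% (Lsp1), among members with at least 5 counts per well in the mean. Lsp1 stood at 51.6% in random, 73.4% in time-lapse and 92.98% in FACS HPC wells, all of which were assigned by expression. Of the target wells labelled HPC, 3 resembled another line, and their part in the Lsp1 spread was not tested. As a description over wells, within plates, Actb and Tmsb4x had a rank correlation of 0.61 in leukemia target wells (2 wells low in X-linked counts left out) and 0.58 in 100 random ones, 0.49 in 73 HPC target wells and 0.19 in 120 T target wells. These wells share plates and totals. The median correlation over all pairs of members was 0.17 in leukemia, 0.13 in HPC and 0.05 in T target wells.

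The 44 genes took a median of 3.44% of the counts of a leukemia target well, 1.76% of a T well and 1.89% of an HPC well. The shares were 2.76%, 1.24% and 1.90% on time-lapse plates and 3.82%, 1.81% and 1.92% on random plates. In PBMC the median well held 2.13% in T cell-like, 2.10% in B cell-like and 3.01% in NK cell-like wells. The level and the depth of PBMC come from a separate table and are set beside the lines without a test.

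PBMC wells were clustered without the 44 genes and named by markers, which gave 3 clusters of T cell-like wells (63, 79 and 59 wells), 88 wells that were B cell-like, 32 that were NK cell-like and 18 left unnamed. These last wells held a median of 49.4% Rn45s and enter no comparison. Over all wells Actb was at 4423 CPM (exact Poisson 95% interval 4277 to 4571), Tmsb4x at 2151 and Tmsb10 at 2123 CPM. The fewest counts were those of Vcl (17.6 CPM, 14 counts), Pfn1 (23.9 CPM, 19 counts) and Was (36.5 CPM, 29 counts). Genes missing from a line were present in blood: Zyx was at 132.2 CPM, Evl at 201.5, Lsp1 at 314.2, Dock2 at 282.1, Capg at 90.7 and Actn1 at 492.5 CPM.

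**Figure D5:**
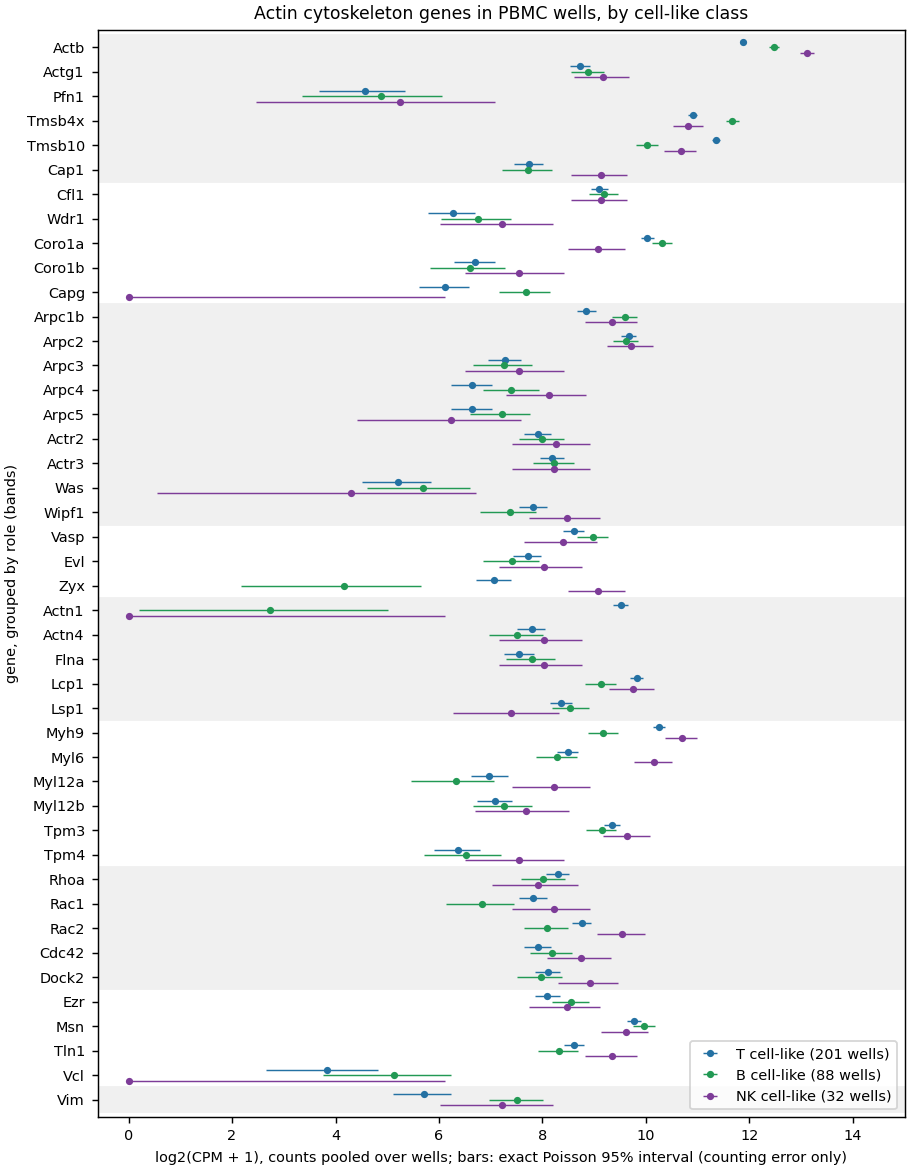
Level of each of the 44 genes in PBMC wells as log2(CPM + 1) of counts pooled over the wells of a class, with exact Poisson 95% intervals as bars. Actn1 in T cell-like wells lies far from the B and NK cell-like points, Zyx is highest in NK cell-like wells.

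B cell-like against T cell-like wells, compared on 8 plates, had 0 members higher and 3 lower of 44 tested, beside 1.66% and 2.17% of all genes. Actn1 was at 732.6 CPM in T cell-like wells and at 5.65 CPM in B cell-like wells (1 count), a ratio of 130 (23.1 to 5133). Tmsb10 was at 2631 against 1034.2 CPM (log2 -1.35) and Myh9 at 1224.1 against 576.5 CPM (-1.09), the last below the threshold without PBMC plate 5 (-0.99). Tmsb4x leaned the other way, with 1922 CPM in T cell-like and 3264 CPM in B cell-like wells, and was not called.

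NK cell-like against T cell-like wells, for which 3 plates held 5 or more wells of both, had 4 members higher and 2 lower of 44, beside 2.7% and 5.94% of all genes. Actb was at 8845 against 3759 CPM (1.23), Myl6, the essential myosin light chain, at 1133.5 against 358.7 CPM (1.66), and Myl12a at 297.3 against 124.3 CPM (1.25). Zyx was at 538.9 CPM (29 counts) against 132.9 CPM (70 counts), a ratio of 4.06 (2.54 to 6.34). Actn1 had no count in 32 NK cell-like wells, at least 13.1-fold lower than in T cell-like wells, and the missing counts of Capg allow a fold of only at least 1.23.

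Within the T cell-like wells Actn1 split by cluster. It was at 35.1 CPM in 63 wells led by Cxcr6 and Rora (7 counts, in 3.17% of wells), at 1079.3 CPM in 79 wells led by Il6ra and Ly6c1, and at 1255.6 CPM in 59 wells led by Cd8b1, with the largest median total in the first cluster (2869.99 against 2105 and 2437 counts). Tmsb10 was at 1893, 3122 and 3033 CPM in the same order, and Zyx at 175.3, 127.3 and 81.9 CPM. The intervals of Actn1 in the first cluster (14.1 to 72.2 CPM) and in the other two did not overlap, and cover counting error only. The cultured T line held 76.3 CPM of Actn1 and no Zyx on 2 of 4 target plates.

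Among the other pathway genes in PBMC, Swap70, which binds Rac and actin in B cells, was the 1 called higher in B cell-like wells (367.4 against 7.59 CPM), and Apbb1ip the 1 lower, of 80 tested (all genes 1.66% and 2.17%). NK cell-like wells had 7 higher and 2 lower of 82 (all genes 2.7% and 5.94%), with Ahnak, Itga4 and Itgb1 at 2.54, 2.03 and 1.96.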

How the data were processed

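The authors' deposited tables hold expected counts, that is molecules per gene in each well, counted through barcodes in the primer per the labels' protocols and left unscaled. The submitters' processing notes name bcl2fastq, STAR and the genome mm10. Versions, counter, annotation and well filter: not given in the sources used here. Since 5.31% (cell lines) and 5.15% (PBMC) of positive values were not whole, count models were not fitted. Counts were summed per plate and line (at least 5 wells) and scaled to CPM. Lines of unlabelled and FACS wells came from the highest Spearman correlation with target profiles over 42 leukemia, 47 T and 50 HPC genes, members left out. PBMC were clustered with scanpy 1.11.5 (2000 variable genes, 30 components, 15 neighbours, Leiden resolution 1). Intervals are exact 95% ones and, like floors of 3 counts, cover counting error only. Positions are from GENCODE for GRCm38. The call rule was tested on simulated data. The members, the pathway list and all rules were chosen with earlier results of these data known. Described in full are every member called in a comparison and the highest of each role group. The result for one role group is not reported here. Alternatives were other scalings, filters, pseudocount, pooling, thinning, well filters and leaving out plates. Scripts ran under Python 3.11.15 with pandas 2.3.3, numpy 2.4.6, matplotlib 3.10.9 and scipy 1.17.1.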

Additional observations from a re-analysis of the deposited data

Results flagged for a closer look

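Vim differed between time-lapse and random plates in opposite directions in 2 lines: on all 16 time-lapse plates it lay above every random plate in HPC wells (log2 difference 1.06) and below every random plate in T wells (-3.75). This difference between the lines was not tested. The HPC difference was 0.92 without random plate 3. Target and FACS HPC wells, which had no time-lapse imaging, held Vim nearer to the time-lapse than to the random level.

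The summed level of the 44 genes in random HPC wells stood apart on 1 plate, at 21001 CPM against 18674 to 18970 CPM on the other 3. It was 1 of 9 groups of plates looked at this way, and chance sets apart about 1 in 20.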

How the results depend on the processing

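No paired analysis was possible because no result comes from a test, each group being 1 sample; lines were compared within the target plates they share. Of 60 called gene results, 48 met the rule under all settings run for them, 12 were lost at least once and none reversed. By FACS label in place of the assigned line, target against FACS had 4 higher and 3 lower members in leukemia (median 0.082), 1 and 10 in T, and 2 and 4 in HPC. Since 33.5% of FACS wells resembled the line on their label, these counts set wells of unlike lines against each other. They have no share of all genes beside them and are not read as results about the members. For HPC against T, 1 member stayed lower with Rn45s out of the total, under median-of-ratios scaling, with 5 CPM added and with pooled counts, and 1 to 3 with a plate left out. For HPC against leukemia the median was -0.23 under median-of-ratios scaling and -0.41 to -0.36 with a plate left out. The 1 higher member of random against target T became 0 under median-of-ratios scaling, with pooled counts and without target plate 3 (range 0 to 1), and that of time-lapse against random HPC 0 to 1 with a random plate left out. With a plate left out, target against FACS had 0 to 1 lower in leukemia and in HPC, and NK against T cell-like 5 to 7 higher (7 without PBMC plate 1). The unnamed PBMC wells held 1.26% member counts with Rn45s left out. NK cell-like wells gave no comparison at Leiden resolution 0.5. Median-of-ratios scaling moved the all-gene median from -0.12 to 0.01 (HPC against leukemia), from -0.12 to -0.01 (HPC against T) and from -0.14 to -0.03 (target against FACS, T). Depth limits PBMC most, where Vcl, Pfn1 and Was rest on under 30 counts each.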

Other observations

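Tmsb4x, Was, Flna and Msn lie on the X chromosome. In 4 leukemia wells the X-linked genes of the table made up under 1% of the counts, against a median of 3.09% in leukemia target wells and 2.90% in leukemia time-lapse wells. Target plate 4, well 9, held 0.42% and no count of Tmsb4x, Msn, Flna, Was or Vim, beside 63 counts of Actb and a total of 23775. Target plate 4, well 36, held 0.49% and 1 count of Tmsb4x. Time-lapse plate 11, well 19, and plate 16, well 66, held 0.78% each, with 165.5 and 33.5 counts of Tmsb4x. Leaving these wells out, an alternative chosen after seeing the data, left every count of called members in the cell lines as it was.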
